A study of Mus musculus with 106 samples.

Results

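Cirbp and Rbm3 are the 2 mouse genes described here, taken from the gene counts by their symbols, out of 21647 to 23420 genes in each count table. Both encode small cold-inducible RNA-binding proteins, and both were above the expression limit in all 16 comparisons of tissues at a changed housing temperature with the same tissue at 22 °C. The mice were wild type males, labelled C57BL/6J in the table that holds the 34 °C experiment and quadriceps and C57BL/6 in the other tables. For 10 °C they were cooled in steps, then kept at 10 °C for 2 weeks, and were labelled 11 weeks of age, or 12 weeks for quadriceps. For 34 °C they were kept warm for 4 weeks and were labelled 12 weeks of age. Controls of the same strain, sex and labelled age stayed at 22 °C, and per the study's methods all mice were housed without nesting material. Brain, hypothalamus, spinal cord, ileum, liver, spleen, bone marrow, quadriceps muscle, interscapular brown adipose tissue (iBAT), inguinal subcutaneous adipose tissue (ingSAT) and perigonadal visceral adipose tissue (pgVAT) were read at 10 °C, and brain, iBAT, ileum, liver and quadriceps at 34 °C. A library held 2 pooled mice, except in bone marrow and spinal cord (1 mouse each). For iBAT of the 34 °C experiment the study's own descriptions differ on whether libraries held single or pooled mice. Groups had 3 libraries, with 6 each in bone marrow, 5 each in spinal cord and 6 for quadriceps at 22 °C. These 6 serve both quadriceps comparisons because the labels do not assign them to one. By column prefix, 3 of them go with the 10 °C libraries and 3 with the 34 °C libraries. Per the study's methods, cold and warm mice, each with their controls, came from different suppliers, so this control group may mix suppliers. The methods name a kit for the 34 °C experiment and another for tissues not listed. Quadriceps at 10 °C is not listed, so kits may be mixed too.

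Cirbp and Rbm3 each carry 1 RNA recognition motif followed by a glycine-rich tail. In cultured mammalian cells, mild cooling raises both transcripts and both proteins, heat lowers them, and the proteins bind and stabilise other transcripts or aid their translation. Cirbp also follows the daily rhythm of body temperature and feeds into the circadian clock, while Rbm3 is best known for protecting synapses and neurons in the cooled brain. A mouse defends its core temperature in a cold room, so the tissues here need not have cooled with the air, and tissue temperature was not among the measurements used.

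Cirbp (ENSMUSG00000045193) lies on chromosome 10 from 80165985 to 80172786 on the plus strand of GRCm38, and Rbm3 (ENSMUSG00000031167) on chromosome X from 8138975 to 8145880 on the minus strand. GENCODE M21 lists 7 transcripts of Cirbp, of which 1 is a target of nonsense-mediated decay and 4 retain an intron. It lists 11 transcripts of Rbm3, of which 2 are targets of nonsense-mediated decay and 2 retain an intron. The deposited counts are per gene, so these forms cannot be told apart. The antisense gene Rbm3os overlaps Rbm3 by 452 bases, and since the sources used here do not say whether the counting used strand, reads of that stretch are uncertain.

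A short promoter element is shown because it is the known cold-responsive sequence of Cirbp, an octamer bound by the factor Sp1. Of the RefSeq promoter windows (250 bases before to 50 bases after a start site, GRCm38.p6), Cirbp has 2. The first window begins at base 80167589 of chromosome 10 and holds the octamer TCCCCGCC from position -247 relative to the start site, shown in capitals in the first line. The second line shows the stretch nearer to the start, with an inverted CCAAT box and a GC box (GGGCGG) in capitals.
Cirbp, chr10:80167589-80167618, plus strand: ctgTCCCCGCCtcctagtcgctagcgggcg
Cirbp, chr10:80167752-80167781, plus strand: ggATTGGtcagcgcggcgtggtGGGCGGgt
On either strand, the octamer was present in 5.38% of 32817 promoter windows, the GC box in 35.6% and the CCAAT box in 37.4%. The core of a heat shock element (GAANNTTC) was in 7.86% of all windows and had no match in either Cirbp window. Rbm3 has no window in the table.

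The libraries held 4262403 to 62880248 counts, and Cirbp and Rbm3 had 119 to 7147 counts each in a library. No pair of libraries was identical. The tables from the 2 sequencing sites do not share a scale: at 22 °C, Rbm3 in brain averaged 13.9 CPM (counts scaled to a common library size) in the 10 °C experiment and 80.3 CPM in the 34 °C experiment, and in iBAT 23.4 and 82.1 CPM, while Cirbp in brain averaged 58.1 and 71.5 CPM. The labels name brain without hypothalamus in the 34 °C experiment and only brain in the 10 °C experiment. The site, kit and mouse supplier also differed together, and the parts of these differences in this gap cannot be told apart. Levels and changes are therefore compared only within a table. In every comparison, all tested markers of the labelled tissue were above 0 in all of its libraries. Some libraries held markers of other organs, which are given with their tissues below. In pgVAT at 10 °C, replicates 1 and 3 held 19266 and 22631 CPM of summed epididymis markers, against 12250 and 8726 CPM of adipocyte markers. In the 10 °C experiment, replicate 2 of brain at 22 °C held 60919 CPM of summed hepatocyte markers, against 733 to 1102 CPM in the other brain controls. It also held 649 CPM of markers listed for brown adipocytes, against 4.07 and 4.38 CPM. That list includes Elovl3, which per the study is also highly expressed in liver. Neuron markers in this brain library summed to 2190 CPM, against 3149 and 3555 CPM. The brain levels at 22 °C, the changes of Cirbp and Rbm3 in brain and the likeness of levels are also given without it. So is the difference between tissues for Cirbp. All other results keep this library, among them the shared change at 10 °C, the gene lists and the share of genes called in brain.

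At 22 °C the 2 genes had different orders over tissues, read in the 8 tissues of the largest table with scaling over that table (n = 3 libraries each, mean ± SD). Cirbp was highest in hypothalamus, at 67.9 ± 8.61 CPM, followed by brain (53.5 ± 9.60), pgVAT (49.7 ± 8.24), ingSAT (49.0 ± 13.8), spleen (40.4 ± 8.34), ileum (29.6 ± 3.19), liver (23.04 ± 4.45) and iBAT (22.2 ± 3.45). Rbm3 was highest in spleen, at 91.6 ± 7.29 CPM, followed by ileum (44.9 ± 8.31), ingSAT (33.3 ± 9.69), pgVAT (32.5 ± 8.08), iBAT (29.7 ± 2.03), liver (24.1 ± 4.05), hypothalamus (22.3 ± 2.05) and brain (12.5 ± 2.20). Brain was thus the second of 8 tissues for Cirbp and the last for Rbm3. Without its replicate 2 these ranks stayed, with means of 58.1 CPM for Cirbp and 11.8 CPM for Rbm3 (n = 2).

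Neighbours in the Cirbp order did not differ beyond their spread. Each of the 7 steps had an adjusted p of 0.0784 or more by edgeR's quasi-likelihood test, although 15 of all 28 pairs of tissues differed at an adjusted p under 0.05. In the Rbm3 order, spleen exceeded ileum by 1.03 ± 0.21 on the log2 scale (SE, edgeR adjusted p = 0.000302) and hypothalamus exceeded brain by 0.83 ± 0.21 (edgeR adjusted p = 0.00433), while the other 5 steps did not pass. Without replicate 2 of brain that last step was 0.92 ± 0.24 (edgeR adjusted p = 0.00424). The order of liver and hypothalamus for Rbm3 reversed when libraries were scaled by size alone. In the table of the 34 °C experiment, Cirbp averaged 44.8 CPM in brain against 30.4 CPM in ileum (edgeR adjusted p = 0.044), and Rbm3 averaged 93.7 CPM in ileum against 63.2 CPM in iBAT (edgeR adjusted p = 0.0201), and the steps below these did not pass. Brain was not last for Rbm3 in that table, with 50.3 CPM against 41.4 CPM in liver, a step that did not pass. Scaling by library size alone reversed quadriceps and brain there for Rbm3. Bone marrow (90.4 ± 9.02 CPM of Rbm3, n = 6) and spinal cord (14.6 ± 1.69 CPM, n = 5) have tables of their own, so these levels stand beside the others without a test.

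**Figure D1:**
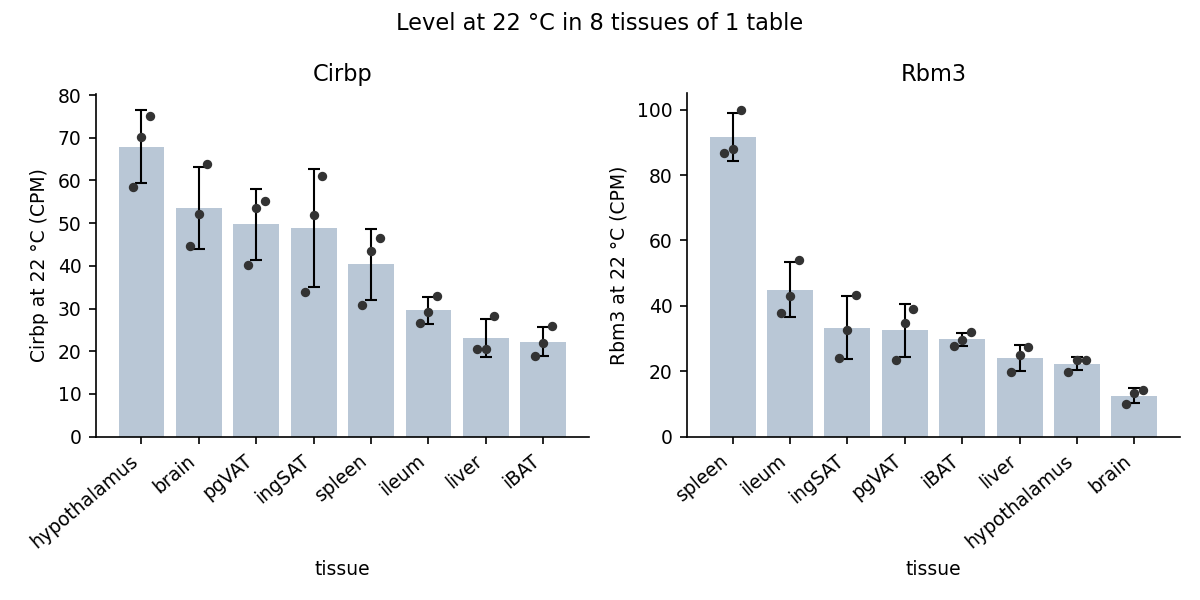
Mean level of Cirbp (left) and Rbm3 (right) at 22 °C in CPM, for the 8 tissues of the largest table in falling order. Bars are means, error bars SD and points the 3 libraries of each tissue, and hypothalamus leads for Cirbp (67.9 CPM) whereas spleen leads for Rbm3 (91.6 CPM).

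At 10 °C, Cirbp fell in ileum and ingSAT, Rbm3 rose in ingSAT, and neither gene passed the limits in the other 9 tissues (edgeR's quasi-likelihood test, unadjusted p of at most 0.05 and over 1.5-fold). The adjusted p of these 3 changes lay between 0.0736 and 0.101. A gene past both limits is described as called. In bulk tissue, fewer cells of a type and less RNA per cell cannot be told apart.

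In ileum, Cirbp read 26.7, 33.6 and 30.3 CPM at 22 °C and 20.5, 17.7 and 18.4 CPM at 10 °C. All 3 cold libraries lay below all 3 controls. Cirbp fell by 0.68 ± 0.11 on the log2 scale (SE), 1.60-fold lower (edgeR p = 0.000419, adjusted p = 0.0736, and exact permutation p = 0.1, the smallest that 3 against 3 allow), where 2.71% of all genes tested in ileum were called. Rbm3 in the same libraries read 38.0, 43.9 and 55.9 CPM at 22 °C and 50.6, 55.5 and 63.5 CPM at 10 °C, with overlap between the groups and a log2 difference of 0.30 ± 0.15 (edgeR adjusted p = 0.357).

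In ingSAT, the white depot beneath the skin, Cirbp read 37.4, 57.3 and 65.8 CPM at 22 °C and 30.3, 35.5 and 35.6 CPM at 10 °C. The cold libraries were close together and lay below the controls, of which replicate 1 was nearest to them. Cirbp fell by 0.66 ± 0.21, or 1.58-fold (edgeR p = 0.0167, adjusted p = 0.101, exact permutation p = 0.1). Without replicate 2 or 3 at 22 °C or replicate 1 at 10 °C, the fall was 0.61, 0.47 or 0.59 and its unadjusted edgeR p rose to between 0.0503 and 0.0537, so the call rests on each of these libraries. Rbm3 read 36.03, 26.4 and 46.8 CPM at 22 °C and 51.0, 81.7 and 66.5 CPM at 10 °C, again without overlap. It rose by 0.87 ± 0.25, or 1.82-fold (edgeR p = 0.0106, adjusted p = 0.0806, exact permutation p = 0.1), and stayed called with each library left out. In ingSAT 16.3% of all genes tested were called, so a call there was common.

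Markers of other cells moved in the same libraries. In ingSAT, the 4 brown adipocyte markers (Ucp1, Cidea, Cox8b, Elovl3) summed to 131 to 184 CPM at 22 °C and 2205 to 2813 CPM at 10 °C, and all 4 were called higher. The 4 markers of neutrophil precursors, of which 2 were expressed, summed to 17.7 to 35.02 CPM and 5.04 to 10.7 CPM. In ileum, the summed 4 markers of its epithelium ran from 6024 to 7020 CPM at 22 °C and 8158 to 10022 CPM at 10 °C, and all 4 markers of blood were called higher, from 30.1 to 60.3 CPM summed at 22 °C to 85.3 to 123 CPM. The 5 adipocyte markers in ileum ran from 38.5 to 97.3 CPM and from 95.1 to 289 CPM. Their part in the changes of Cirbp and Rbm3 was not tested.

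**Figure D2:**
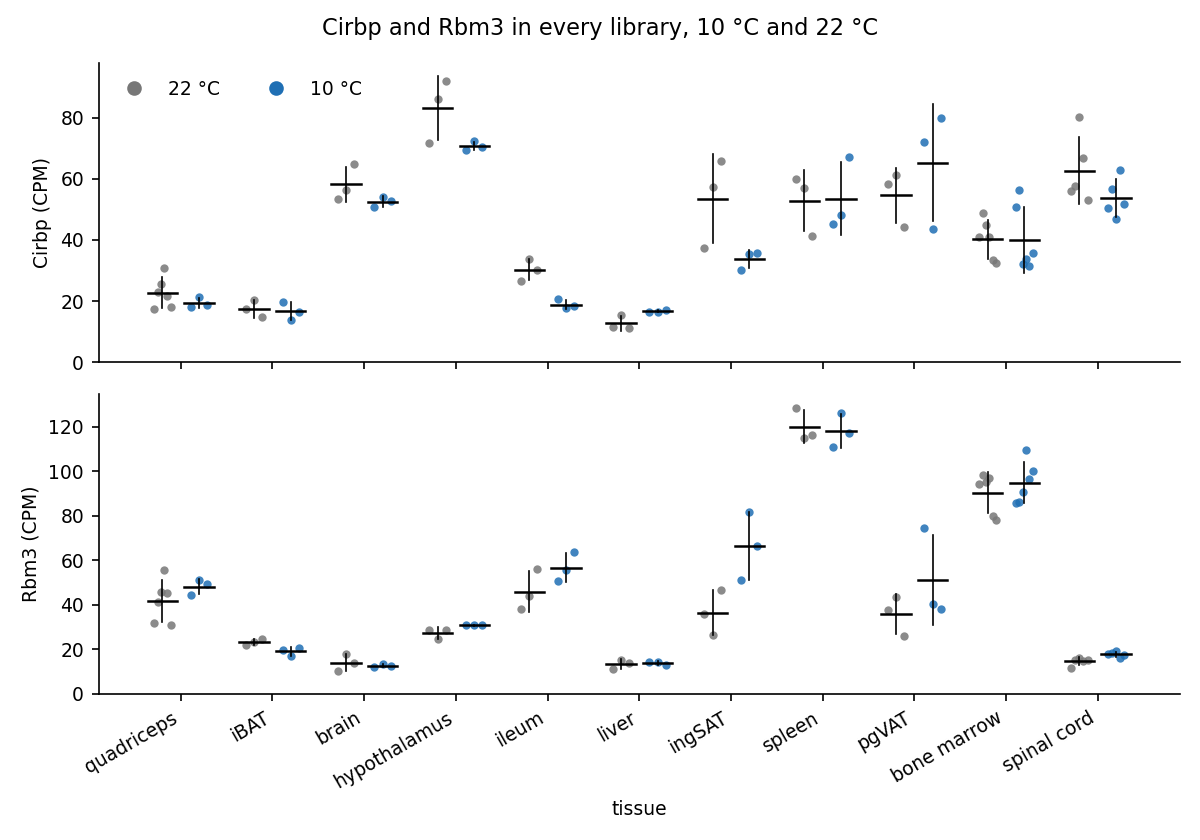
Cirbp (upper) and Rbm3 (lower) in CPM in each library at 22 °C (grey) and 10 °C (blue), by tissue, scaled within each tissue. Horizontal lines are means and vertical lines SD, and the groups stand apart for Cirbp in ileum (26.7 to 33.6 against 17.7 to 20.5 CPM) and ingSAT, and for Rbm3 in ingSAT.

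In spinal cord, hypothalamus, liver and iBAT, 5 further differences passed the unadjusted limit alone and stayed below 1.5-fold. In spinal cord, where each library is 1 mouse, Rbm3 read 11.7, 15.3, 16.1, 14.7 and 15.2 CPM at 22 °C and 17.6, 18.2, 19.2, 16.2 and 17.5 CPM at 10 °C. No cold mouse was below a control, and the log2 difference was 0.28 ± 0.08, or 1.22-fold (edgeR p = 0.00544, adjusted p = 0.78, with an exact permutation p of 0.00794, the smallest that 5 against 5 mice allow). Cirbp in spinal cord averaged 62.7 ± 11.0 CPM at 22 °C and 53.7 ± 6.19 CPM at 10 °C (SD, n = 5 each), with overlap (edgeR adjusted p = 0.78). The summed red cell precursor markers ran from 10.2 to 16.8 CPM at 22 °C and 15.9 to 47.5 CPM at 10 °C, with all 3 tested called higher, and those of neutrophil precursors from 1.46 to 3.13 CPM and 2.18 to 7.66 CPM, with 2 called higher, and their part was not tested.

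In hypothalamus, which senses and sets body temperature, Rbm3 read 28.8, 24.4 and 28.6 CPM at 22 °C and 30.7, 31.1 and 30.7 CPM at 10 °C, a log2 difference of 0.17 ± 0.08 without overlap (edgeR adjusted p = 0.801). Cirbp read 71.6, 86.2 and 91.9 CPM at 22 °C and 69.5, 72.3 and 70.4 CPM at 10 °C, a log2 difference of -0.24 ± 0.08 with overlap (edgeR adjusted p = 0.759). The cold libraries of hypothalamus were close together for both genes. Oligodendrocyte markers there summed to 3922 to 4254 CPM at 22 °C and 3464 to 3513 CPM at 10 °C, with none called. Blood markers summed to 90.4 to 159 CPM and 174 to 176 CPM, and those of red cell precursors to 23.9 to 25.7 CPM and 25.8 to 34.6 CPM. In each of these 2 lists 1 marker was called higher, and the part of these markers was not tested. In brain neither gene separated the groups, with log2 differences of -0.15 ± 0.10 for Cirbp and -0.14 ± 0.22 for Rbm3. The summed hepatocyte markers ran from 733 to 60919 CPM over the controls and from 973 to 997 CPM at 10 °C, with 3 of 4 called lower, and those of brown adipocytes from 4.07 to 649 CPM and from 3.91 to 4.14 CPM. Without replicate 2 at 22 °C, which holds both, the differences were -0.17 for Cirbp and 0.06 for Rbm3, so the sign for Rbm3 rests on that library. Leaving out each library in turn gave -0.20 to -0.06 for Cirbp and -0.32 to 0.06 for Rbm3.

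In liver, Cirbp read 11.5, 15.6 and 11.2 CPM at 22 °C and 16.5, 16.5 and 17.2 CPM at 10 °C, the only tissue at 10 °C with all cold Cirbp values above the controls. The log2 difference was 0.39 ± 0.13 (edgeR adjusted p = 0.175), and Rbm3 differed by 0.05 ± 0.13. The summed hepatocyte markers also stood apart, from 57251 to 64292 CPM at 22 °C and 80960 to 84157 CPM at 10 °C, though none of the 4 was called. Those listed for brown adipocytes ran from 903 to 1200 CPM and 645 to 894 CPM. That list includes Elovl3, which per the study is highly expressed in liver, so this sum need not come from brown fat. The adipocyte markers summed to 8.56 to 162 CPM and 11.3 to 40.4 CPM, and the part of these markers was not tested. In iBAT, the heat-producing depot, Rbm3 read 22.1, 23.4 and 24.7 CPM at 22 °C and 19.8, 16.7 and 20.5 CPM at 10 °C, a log2 difference of -0.30 ± 0.13 without overlap (edgeR adjusted p = 0.157). Rbm3 in iBAT thus lay lower at 10 °C in a table where its ingSAT value lay higher. Cirbp in iBAT differed by -0.06 ± 0.17. The summed skeletal muscle markers there ran from 5649 to 8159 CPM at 22 °C and 2223 to 4682 CPM at 10 °C. Those of brown adipocytes ran from 7541 to 12351 and 13423 to 17186 CPM. Hepatocyte markers summed to 40.1 to 74.1 CPM and 0.127 to 0.748 CPM, with all 3 tested called lower. Blood markers summed to 414 to 642 and 716 to 1134 CPM, with all 4 called higher. Markers of the epididymis summed to 0 CPM at 22 °C and 2.72 to 32.8 CPM at 10 °C, with all 4 tested called higher. The part of these markers was not tested.

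In quadriceps at 10 °C, Cirbp ran from 17.3 to 30.96 CPM (median 22.4) at 22 °C and read 18.1, 21.3 and 18.7 CPM at 10 °C, and Rbm3 ran from 30.8 to 55.7 CPM (median 43.2) and read 44.3, 50.9 and 49.2 CPM. Both groups overlapped for both genes, with log2 differences of -0.24 ± 0.17 and 0.21 ± 0.17, and against the 3 controls whose column names begin as those of the cold libraries the differences were -0.18 and 0.29. The summed skeletal muscle markers overlapped, while those of the pancreas, from 0.0572 to 1704 CPM over the controls, were at most 0.638 CPM at 10 °C and 0.292 CPM at 34 °C. Markers of the epididymis summed to 0 CPM in the controls and 0 to 161 CPM at 10 °C, with the 2 tested called higher. At 10 °C, 3 of 4 brown adipocyte markers (253 to 356 CPM summed at 22 °C, 287 to 456 CPM at 10 °C) and 3 of 5 adipocyte markers (193 to 552 and 275 to 790 CPM) were called higher, with overlapping sums, and the part of these markers was not tested. In spleen, where Rbm3 was most abundant, the log2 differences were 0.01 ± 0.18 for Cirbp and -0.02 ± 0.09 for Rbm3, whose means were 119.9 and 117.9 CPM. Pancreas markers in spleen summed to 16.9 to 1516 CPM at 22 °C and 15.5 to 3077 CPM at 10 °C. Those of neutrophil precursors summed to 33.5 to 57.8 CPM and 3.85 to 9.79 CPM, with all 4 called lower. Of the red cell precursor markers 1 of 4 was called lower, with overlapping sums. The part of these markers in spleen was not tested. In pgVAT, Rbm3 read 37.7, 43.4 and 25.8 CPM at 22 °C and 74.5, 40.5 and 38.2 CPM at 10 °C, so that 1 cold library was far above the rest and the log2 difference of 0.52 ± 0.34 did not pass (edgeR adjusted p = 0.664). Without that library it was 0.14. Cirbp in pgVAT read 58.2, 61.3 and 44.3 CPM at 22 °C and 72.2, 43.7 and 80.0 CPM at 10 °C. Its log2 difference was 0.26 ± 0.28, with overlap (edgeR adjusted p = 0.809). Markers of the epididymis, which adjoins this depot, summed to 670 to 2582 CPM in the controls and to 19266, 3.17 and 22631 CPM in cold replicates 1, 2 and 3, and those of adipocytes to 18617 to 31072 and 8726 to 27997 CPM, and their part was not tested.

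In bone marrow, Cirbp ran from 32.5 to 48.8 CPM (median 40.8) in the 6 mice at 22 °C and from 31.5 to 56.3 CPM (median 34.7) in the 6 mice at 10 °C. The cold mice were not alike: replicates 1 and 2 read 50.8 and 56.3 CPM, and the other 4 read 31.5 to 35.6 CPM. Rbm3 ran from 77.8 to 98.4 CPM at 22 °C and from 85.8 to 109 CPM at 10 °C, with 85.8 and 86.0 CPM in those cold replicates 1 and 2. The group differences were -0.01 ± 0.15 for Cirbp and 0.07 ± 0.07 for Rbm3 on the log2 scale. The summed red cell precursor markers ran from 8245 to 10491 CPM at 22 °C and 10783 to 13753 CPM at 10 °C, with the 2 highest sums in cold replicates 1 and 2. Those of B cells ran from 468 to 643 CPM and 649 to 756 CPM, with 742 and 756 CPM in cold replicates 1 and 2. The sums of neutrophil precursors overlapped, and the part of these markers was not tested.

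For these tissues the share of all genes called at 10 °C was 0.271% in spinal cord, 0.578% in hypothalamus, 2.72% in brain, 3.28% in liver, 13.2% in iBAT, 3.35% in quadriceps, 2.68% in spleen, 7.94% in pgVAT and 1.29% in bone marrow. Neither gene was called in any of them. Over all 16 comparisons, the groups of a single gene did not overlap in 16.8% of tests, against 8 of 32 for Cirbp and Rbm3 together, 4 for each gene.

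At 34 °C, Rbm3 fell in quadriceps, and neither gene passed the limits in brain, ileum, liver or iBAT. In quadriceps, Rbm3 ran from 30.04 to 54.0 CPM (median 42.1) in the 6 controls and read 26.3, 20.9 and 33.5 CPM at 34 °C. The warm libraries lay at the lower end, with replicate 3 inside the range of the controls. Rbm3 fell by 0.59 ± 0.20, or 1.51-fold, just past the limit (edgeR p = 0.0129, adjusted p = 0.778, exact permutation p = 0.0714), where 1.25% of all genes were called. Against the 3 controls with the same column prefix the fall was 0.67 and still called, and against the other 3 it was 0.52 and no longer called. Leaving out replicate 3, 4 or 5 at 22 °C or replicate 1 or 2 at 34 °C also ended the call, with a fall between 0.44 and 0.58. Cirbp in the same libraries had a median of 21.9 CPM in the controls, the lowest at 16.8 CPM, and read 24.6, 20.1 and 24.3 CPM at 34 °C, a log2 difference of 0.05 ± 0.17. Of the quadriceps markers of other cells at 34 °C, 2 of 3 for brown adipocytes (246 to 345 CPM summed at 22 °C, 275 to 326 CPM at 34 °C) and 1 of 5 for adipocytes were called lower, with overlapping sums, and their part was not tested.

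In iBAT at 34 °C, Cirbp read 34.7, 26.4 and 39.3 CPM in the controls and 48.3, 44.5 and 46.3 CPM in the warm libraries. All warm libraries lay above the controls, and the log2 difference was 0.47 ± 0.14, or 1.39-fold (edgeR adjusted p = 0.0435), under the 1.5-fold limit. Among the 32 results for the 2 genes it was the only adjusted p under 0.05, in a comparison where 3561 of 12331 genes had one and the groups of 48.6% of genes did not overlap. With library size as the only scaling, the median of all genes in this comparison moved to 0.30 and Cirbp to 0.74. Without replicate 3 at 22 °C Cirbp differed by 0.60 and passed the limit. Rbm3 in iBAT read 85.7, 81.5 and 79.1 CPM and then 71.1, 85.1 and 69.2 CPM, a log2 difference of -0.13 ± 0.10. Of all genes tested in iBAT 19.4% were called, and the summed brown adipocyte markers ran from 10079 to 13693 CPM at 22 °C and 5300 to 6640 CPM at 34 °C, whose part was not tested.

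In liver at 34 °C, Cirbp read 26.9, 13.9 and 21.96 CPM in the controls and 25.8, 25.8 and 26.99 CPM in the warm libraries, an overlapping difference of 0.32 ± 0.20, and Rbm3 differed by -0.12 ± 0.16. The summed hepatocyte markers ran from 87678 to 99913 CPM at 22 °C and 125463 to 132836 CPM at 34 °C, with none of the 4 called, and their part was not tested. In ileum the log2 differences were 0.17 ± 0.16 for Cirbp and 0.15 ± 0.16 for Rbm3, and in brain 0.04 ± 0.10 and -0.13 ± 0.13. The share of all genes called was 3.38% in liver, 2.83% in ileum and 0.193% in brain at 34 °C.

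**Figure D3:**
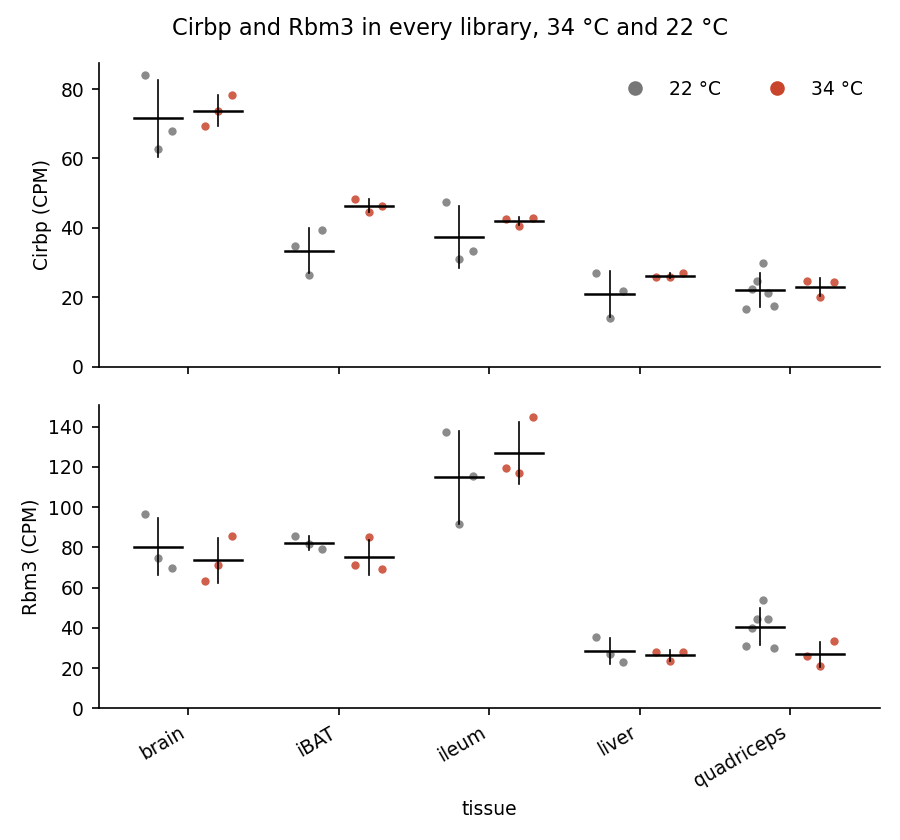
Cirbp (upper) and Rbm3 (lower) in CPM in each library at 22 °C (grey) and 34 °C (red), by tissue, scaled within each tissue. Horizontal lines are means and vertical lines SD, and the warm libraries lie above the controls for Cirbp in iBAT (44.5 to 48.3 against 26.4 to 39.3 CPM) and low in the range for Rbm3 in quadriceps.

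Side by side, Cirbp had a negative log2 difference in 8 of 11 tissues at 10 °C and a positive one in 5 of 5 at 34 °C, with medians of -0.15 and 0.17. Rbm3 had a positive difference in 8 of 11 tissues at 10 °C and a negative one in 4 of 5 at 34 °C, with medians of 0.17 and -0.13. In brain at 10 °C the sign for Rbm3 turned positive without replicate 2 of the controls. The median over all genes tested was between -0.02 and 0.03 in each comparison. A change common to the tissues did not pass for either gene. Over the 8 tissues of the largest table, the shared change at 10 °C was -0.13 ± 0.09 for Cirbp (edgeR adjusted p = 0.435) and 0.20 ± 0.08 for Rbm3 (edgeR adjusted p = 0.188), where 0.584% of genes passed. Over the 5 tissues at 34 °C it was 0.20 ± 0.08 for Cirbp (edgeR adjusted p = 0.228) and -0.19 ± 0.09 for Rbm3 (edgeR adjusted p = 0.304), where 0.493% passed.

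The response of Cirbp to 10 °C differed between the 8 tissues (edgeR adjusted p = 0.0209 for all tissue by temperature terms), with ileum and ingSAT at the negative end and liver at the positive end. In that test 16.1% of all genes passed. The result was lost without ileum (edgeR adjusted p = 0.119), without liver (0.0789) and without ingSAT (0.0751). It was also lost with library size as the only scaling (0.0735) and with replicate numbers as a block in the fit (0.147). The adjusted p ranged from 0.003 to 0.147 over all alternatives. It was 0.0182 without the brain library that held markers of other tissues. Rbm3 did not pass the same test (edgeR adjusted p = 0.0687), although it did without pgVAT (0.016). At 34 °C the test of a difference between tissues gave adjusted p values of 0.719 for Cirbp and 0.257 for Rbm3, where 11.7% of genes passed. Libraries of different tissues may come from the same mice, which the labels do not state.

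**Figure D4:**
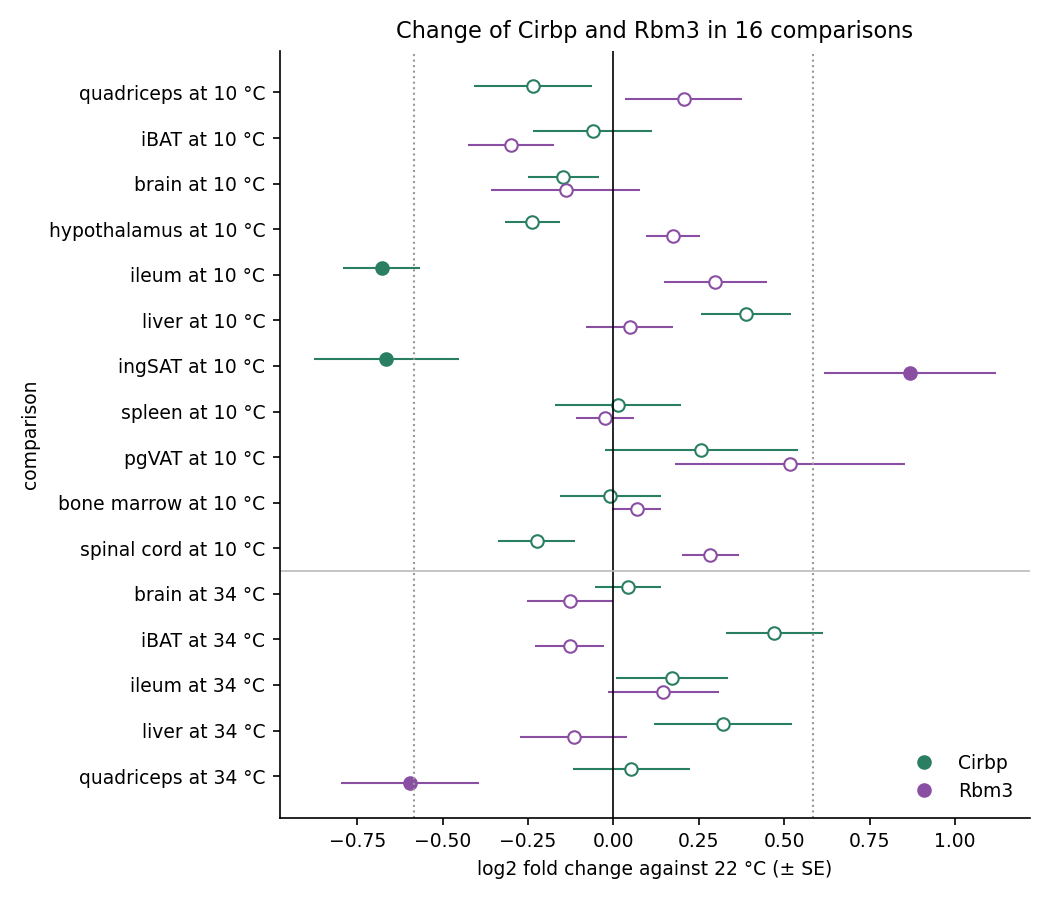
Log2 fold change against 22 °C of Cirbp (green) and Rbm3 (purple) in the 11 comparisons at 10 °C (above the line) and the 5 at 34 °C (below it), with bars of 1 SE. Filled points passed the unadjusted p and the 1.5-fold limit (dotted lines), which are Cirbp in ileum and ingSAT and Rbm3 in ingSAT at 10 °C and Rbm3 in quadriceps at 34 °C.

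Dividing the Rbm3 counts by the Cirbp counts of the same library removes any scaling between libraries, so this ratio is given in every comparison as a description without a test. Its size does not compare the 2 genes, since counts were not divided by length. The ratio was higher in every 10 °C library than in every control in 4 tissues, lower in liver, and overlapping in 6. At 34 °C it was lower without overlap in 2 of 5 tissues and overlapping in 3, and its mean was lower in all 5.

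As background, the share of other genes whose ratio with Cirbp, and then with Rbm3, did not overlap between the groups of that tissue is given beside the values. In ingSAT, the ratio was 0.964, 0.461 and 0.710 at 22 °C and 1.68, 2.30 and 1.87 at 10 °C, a 2.74-fold higher mean, where the ratio with Cirbp did not overlap for 42.1% of other genes and that with Rbm3 for 55.8%. In ileum, it was 1.42, 1.31 and 1.85 at 22 °C and 2.46, 3.14 and 3.46 at 10 °C, 1.98-fold higher (76.7% for Cirbp and 22.3% for Rbm3). Hypothalamus had 0.403, 0.283 and 0.311 at 22 °C and 0.441, 0.430 and 0.437 at 10 °C, a smaller difference of 1.31-fold in the same direction (27.6% and 39.6%).

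Quadriceps, the only tissue read at all 3 temperatures in 1 table, had separate ratios at each. It ran from 1.71 to 2.09 (median 1.79) in the 6 controls, read 2.45, 2.39 and 2.63 at 10 °C, and read 1.07, 1.04 and 1.38 at 34 °C, although neither gene alone separated the groups there. The shares for Cirbp and Rbm3 with other genes were 5.12% and 3.84% at 10 °C and 0.607% and 14.1% at 34 °C. The 10 °C and 34 °C values share these controls. The quadriceps libraries may also differ in kit and mouse supplier, whose part in these ratios was not tested. Among the controls, those with the column prefix of the 10 °C libraries read 1.78 to 1.84 and those with the prefix of the 34 °C libraries 1.71 to 2.09.

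In iBAT at 34 °C the ratio was 2.47, 3.09 and 2.01 in the controls and 1.47, 1.91 and 1.497 in the warm libraries, a 1.55-fold lower mean (56.3% for Cirbp and 40.4% for Rbm3). The 10 °C experiment in iBAT had overlapping values, from 1.14 to 1.68 at 22 °C and from 1.01 to 1.25 at 10 °C. Liver was the tissue with lower cold values, from 0.958 to 1.22 at 22 °C and from 0.750 to 0.866 at 10 °C (40.5% and 11.7%). In spinal cord the mean was 1.42-fold higher at 10 °C, yet 1 cold mouse at 0.259 lay inside the range of the controls, 0.201 to 0.286 (2.75% and 28.6%). In bone marrow the 6 controls ran from 2.02 to 2.39, and the cold mice lay on both sides of them, at 1.69 and 1.53 for replicates 1 and 2 and from 2.81 to 3.24 for the other 4 (0.104% and 1.37%). In total the ratio did not overlap in 7 of 16 comparisons. For the ratio of Rbm3 to each other gene the share was 19.4%, and for the ratio of Cirbp to each other gene it was 19.8%, both over all 16 comparisons.

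**Figure D5:**
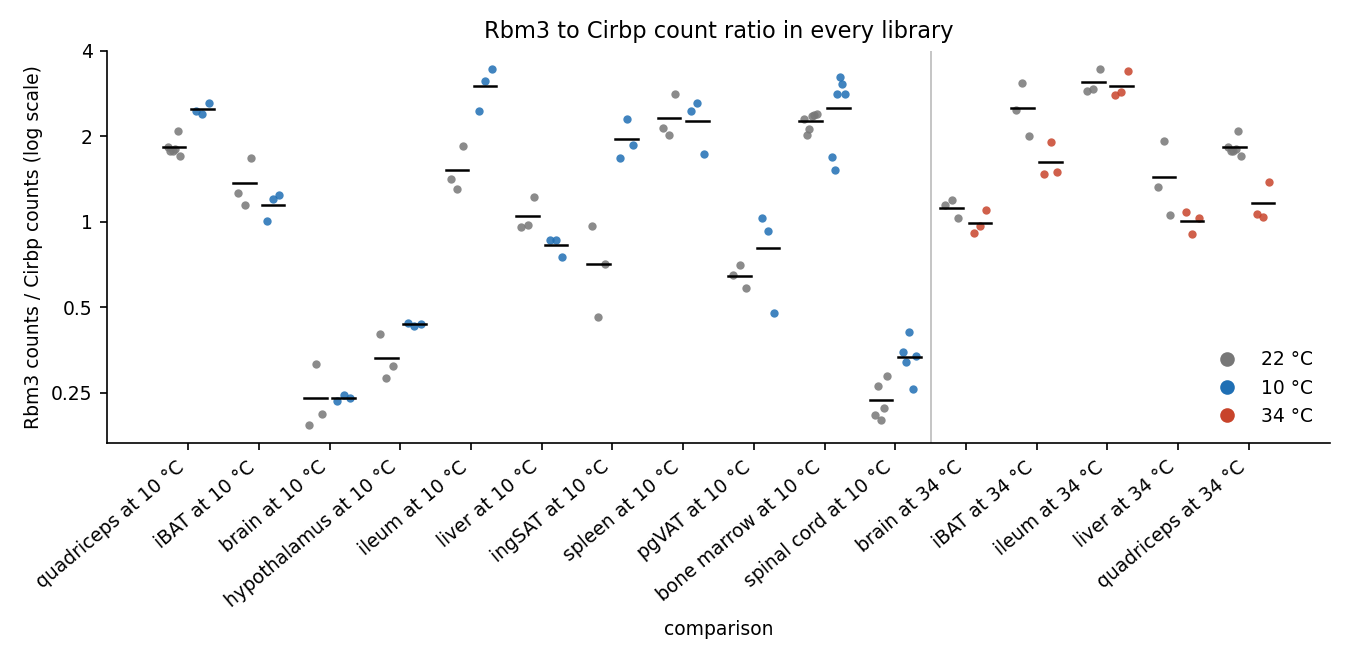
Rbm3 counts divided by Cirbp counts in each library, on a log scale, for the 11 comparisons at 10 °C (left of the line) and the 5 at 34 °C (right), with controls in grey. Black lines are means, and the quadriceps values fall into separate ranges at 10 °C (2.39 to 2.63), 22 °C (1.71 to 2.09) and 34 °C (1.04 to 1.38).

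Across single mice no relation between the 2 genes passed. The deviations of log2 CPM from the group means had a Pearson r of -0.03 and a Spearman rho of 0.21 over the 12 bone marrow mice (permutation p = 0.933 and 0.519). Over the 10 spinal cord mice r was 0.15 and rho -0.05 (permutation p = 0.759 and 0.905). The tests were two-sided, and the adjusted p over both relations were 0.933 for r and 0.905 for rho. Without the 2 mice farthest from the median of Cirbp, r became 0.54 in bone marrow and 0.05 in spinal cord, so the bone marrow value rests on these 2 mice.

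Other families around the 2 genes were read with the same limits. Among glycine-rich relatives and cold shock domain proteins, 1 of 86 tests was called higher and 3 lower at 10 °C, a share of 4.65% against 4.94% of all tests. Ybx2, a germ cell mRNA-binding protein also found in brown fat, rose in ingSAT from 8.70 ± 0.33 to 15.1 ± 3.39 CPM (edgeR adjusted p = 0.0586). Rbmxl1, a relative of the splicing factor Rbmx, fell by 0.64 in iBAT, and Carhsp1, a cold shock domain protein that binds mRNA, fell by 0.75 in brain and by 0.80 in pgVAT. The brain controls, which include the library with liver markers, had 65.5 ± 26.7 CPM of Carhsp1. At 34 °C in iBAT, Carhsp1 fell by 0.72 ± 0.10 (edgeR adjusted p = 0.00339) and Ybx2 rose by 0.69 ± 0.20 (edgeR adjusted p = 0.0391), 2 calls of 38 tests in all, 5.26% against 5.32% of all tests. With library size as the only scaling, the fall of Carhsp1 in iBAT at 34 °C was no longer called.

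The CLK kinases and their SR splicing factors, which control temperature-dependent splicing, had 3 calls in 209 tests at 10 °C, 1.44% against 4.94% of all tests, all higher and all in ingSAT. These were the splicing factors Srsf2 (by 0.59, edgeR adjusted p = 0.0446) and Srsf10 (by 0.79) and the kinase Clk4 (by 0.59). With library size as the only scaling the list had 1 call higher and 4 lower, a count over the list that need not be of these genes. At 34 °C the only call of 94 (1.06% against 5.32%) was Srsf5 in iBAT, which rose by 0.63 ± 0.11 (edgeR adjusted p = 0.00729).

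Among 15 regulators and RNA targets of the 2 proteins, 2 of 148 tests were called higher and 4 lower at 10 °C, 4.05% against 4.94% of all tests. Trpv4, a warm-gated ion channel, fell by 0.90 in ileum (edgeR adjusted p = 0.182), from 2.69 ± 0.55 to 1.42 ± 0.37 CPM, near the expression limit. In ingSAT it fell by 0.85 (edgeR adjusted p = 0.0609), and a relation to Cirbp was not tested. Ntrk2, the receptor of brain-derived neurotrophic factor, fell by 0.87 in ingSAT (edgeR adjusted p = 0.0276) and rose by 0.90 in quadriceps, and Ptgs2, a prostaglandin synthase, rose by 0.60 in brain and fell by 5.57 in pgVAT, where its controls were 248 ± 413 CPM. At 34 °C all 4 calls of 65 tests (6.15% against 5.32%) were in iBAT, where 19.4% of all genes were called. The kinase Dyrk1b fell by 1.13, the clock factor Clock by 0.81 and Ntrk2, named here after its value was seen, by 0.78, while Rpa1, a subunit of the single-strand DNA-binding complex, rose by 0.78. With library size as the only scaling the list had 3 calls higher and 1 lower, a count over the list that need not be of these genes.

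At least 1 of the heat shock genes, which encode chaperones, rose at 10 °C in 9 of 11 tissues. Of 164 tests 32 were called, all of them higher, 19.5% against 4.94% of all tests, and 11 had an adjusted p under 0.05. Of 15 genes each, 7 were called in ileum, 7 in ingSAT, 6 in iBAT and 5 in quadriceps. In ileum, the chaperone Hspa1b rose from 4.83 ± 0.52 to 15.6 ± 1.16 CPM (edgeR adjusted p = 0.0289), the chaperone partner Dnajb1 by 0.92 and Hsph1 by 1.35. In ingSAT, Hsp90aa1 rose by 0.95, its partner Chordc1 by 1.08 and the mitochondrial co-chaperone Hspe1 by 1.10 (edgeR adjusted p from 0.0135 to 0.0157). In spinal cord, Hspa1b rose by 1.19 ± 0.26 (edgeR adjusted p = 0.759).

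At 34 °C, 7 of 74 tests of heat shock genes were called, all of them lower, 9.46% against 5.32% of all tests. They were 2 each in iBAT, ileum and liver and Hsp90aa1 in quadriceps, which fell from 40.1 ± 8.75 to 25.9 ± 1.52 CPM (edgeR adjusted p = 0.716). With library size as the only scaling, 10 were lower and 1 higher at 34 °C, and all 26 calls at 10 °C were higher.

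Clock genes had the most calls, 22 higher and 33 lower of 182 tests at 10 °C, 30.2% against 4.94%. By tissue, 12 of 17 were called in iBAT, 10 each in ingSAT, pgVAT and quadriceps, and 7 in ileum. The repressor Nr1d1 fell from 23.6 ± 7.39 to 5.68 ± 0.02 CPM in ileum (edgeR adjusted p = 0.0488) and from 94.6 ± 8.39 to 30.01 ± 13.5 CPM in ingSAT (edgeR adjusted p = 0.0273). The repressor Cry1 rose by 1.58 and the output factor Dbp fell by 2.71 in ingSAT. In quadriceps at 10 °C, 10 of 17 clock genes were called against all 6 controls, but 4 against the controls of the same column prefix. At 34 °C the calls were 3 higher and 1 lower of 82, 4.88% against 5.32%, and all 7 calls were higher with library size as the only scaling. None of 16 was called in quadriceps at 34 °C against all 6 controls or against those of the same column prefix. Against the controls of the other column prefix, 6 of 17 were called higher and 3 lower. Cirbp is itself a rhythmic gene, the hour of dissection was not among the labels used, and the part of the clock in its values was not tested.

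The genes closest to Cirbp in level over the 8 tissues at 22 °C, by Pearson r of mean log2 CPM among 15845 genes, were Prtg, Kcnd1, D430019H16Rik, Cfap45 and Cldn10 (r from 0.96 to 0.98), and those closest to Rbm3 were Rpl12, Zfp729a, Zfp263, Tcf3 and Zfp207 (r from 0.98 to 0.99). Without replicate 2 of brain, 5 of 5 of these genes remained among the nearest to Cirbp and 3 of 5 among the nearest to Rbm3. Rbm3 itself ranked 9627 for Cirbp, with r = -0.22. Over the 16 log2 fold changes of the 8749 genes tested throughout, the nearest to Cirbp were Nfx1, Ctsa, Bmp4, Sparcl1 and Ankmy2 (r from 0.83 to 0.87), and the nearest to Rbm3 were Esco1, Sltm, Prpf4b, Ccl25 and Ndufa1 (r from 0.83 to 0.90). Between Cirbp and Rbm3, r over the changes was -0.48. These are descriptions with no test, over 8 or 16 points that share libraries, tissues and, in quadriceps, controls.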

How the data were processed

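Gene counts were analysed from 106 bulk RNA sequencing libraries in 31 groups and 11 tissues. The authors deposited raw counts per gene, made per the labels with STAR 2.5.3a, Picard 1.141 and HTSeq 0.6p1 on mm10. Whether counting used strand is not given in the sources used here. Ensembl identifiers of the largest table were matched to symbols for 21583 of 21647 rows. The 4 tables held 4262403 to 25964912, 29545458 to 62880248, 15591374 to 22139577 and 21953207 to 29029283 counts per library, which covers counting precision only. Groups came from the sample titles, since the treatment text gives the warm protocol for every sample.

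Each tissue was fitted alone with edgeR 4.0.16 in R 4.3.3: TMM scaling, genes with an average log2 CPM above 0, and the quasi-likelihood F-test, two-sided, with Benjamini-Hochberg adjustment over all genes tested. Following the study's limits, calls needed p no greater than 0.05 before adjustment together with a change over 1.5-fold. SE is the log2 fold change divided by the root of F. Joint fits held tissue, temperature and their interaction, with an adjusted p under 0.05 as the limit. Since most libraries are pools of 2 mice, p-values measure the spread between these libraries. Fits were tested on simulated data. Correlations across mice used 100000 resamples (scipy 1.17.1). Alternatives included DESeq2 1.42.0, edgeR's exact test, other scalings and filters, and leaving out each library. Fits without the brain library that held liver markers were chosen after seeing the data.

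Named were, per list and comparison, at most 3 called genes with the smallest p, and the 5 genes most like each member. Cirbp, Rbm3 and the lists were chosen with earlier results of these data known. Whether replicate numbers pair the samples is not known. In none of the 9 tissues of the 10 °C experiment that share numbers did every same-numbered pair correlate above 0.1. Single pairs reached 0.43 in iBAT and 0.42 in ileum, and with so few pairs this check cannot exclude pairing. The other comparisons were not tested for pairing. The promoter sequences are from RefSeq (GRCm38.p6).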

Additional observations from a re-analysis of the deposited data

Results flagged for a closer look

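Among the 22 °C quadriceps libraries, replicate 5 had an Rbm3 to Cirbp count ratio of 2.09, while the other 5 ran from 1.71 to 1.84, a gap wider than Dixon's 95% limit for 6 samples. Chance gives such a gap in about 1 of 20 groups, and 17 combinations of group and measure were checked. The ratio stayed below the 10 °C libraries (2.39 to 2.63) and above the 34 °C libraries (1.04 to 1.38).

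The effect of 10 °C on Cirbp differed between the 8 tissues of the largest table by the test of the interaction itself (edgeR adjusted p = 0.0209), from -0.68 in ileum and -0.66 in ingSAT to 0.39 in liver on the log2 scale. With library size as the only scaling the edgeR adjusted p was 0.0735, and with replicate numbers as a block in the fit the test did not pass either.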

How the results depend on the processing

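Over 442 alternatives of the single comparisons, 25 had the other sign, all for values that were not called, and 43 of 48 results (32 gene values and 16 ratios) stayed on the same side of the limit throughout. Requiring an adjusted p under 0.05 ended the calls of Cirbp in ileum (-0.68), Cirbp in ingSAT (-0.66), Rbm3 in ingSAT (0.87) and Rbm3 in quadriceps at 34 °C (-0.59), and added Cirbp in iBAT at 34 °C (0.47). With DESeq2 the adjusted p was 0.00015 for Cirbp in ileum, 0.0407 for Cirbp in ingSAT and 0.012 for Rbm3 in ingSAT. Leaving out 1 library gave -0.87 to -0.47 for Cirbp in ingSAT, 0.32 to 0.60 for Cirbp in iBAT at 34 °C and -0.78 to -0.44 for Rbm3 in quadriceps at 34 °C. Library size alone gave 0.74 for Cirbp in iBAT at 34 °C, now called, and -0.57 for Rbm3 in quadriceps at 34 °C, no longer called, as with the controls of the other prefix (-0.52) and the exact permutation test (-0.59). With 3 against 3 libraries that test cannot go below 0.1.

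The difference between tissues at 10 °C for Cirbp rose to an adjusted p of 0.0735 with library size alone, 0.119 without ileum, 0.0789 without liver, 0.0751 without ingSAT and 0.147 with the replicate block. For Rbm3 it fell to 0.0234 with DESeq2 and 0.016 without pgVAT. The cause was not tested. In levels at 22 °C, library size alone reversed Rbm3 in liver over hypothalamus (-1.01) and in quadriceps over brain (-0.98). The replicate block changed no call of a single comparison, for example -0.67 for Cirbp in ileum, and gave 5 calls higher of 171 tests for the CLK list, 3 lower of 121 for the regulators and 21 higher and 25 lower of 148 for the clock genes at 10 °C. No paired analysis was possible for spinal cord because its control columns carry other numbers. The controls of quadriceps could not be chosen by their titled numbers, so column prefixes were used, chosen after seeing the data.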
